A study of Homo sapiens with 2 samples.

Results

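The genes described here are 10 transcription factors of the AP-1 and immediate early class: JUN, JUNB, JUND, FOS, FOSB, FOSL1, FOSL2, ATF3, EGR1 and NR4A1. They were chosen by gene symbol, and all 10 were found among the 26447 named genes of both expression tables. RNA sequencing compared shNRP2 cells, which carried a lentiviral hairpin against the coding region of NRP2, with shControl cells, which carried a non-targeting hairpin. The protein of NRP2, neuropilin-2, is a co-receptor on the cell surface that binds semaphorins and VEGF family growth factors. Both libraries came from C4-2B ENZR, an enzalutamide-resistant human prostate cancer line of the LNCaP lineage, selected with antibiotic after infection and cultured in medium with 20 µM enzalutamide, an antiandrogen drug. A single hairpin is described, and the sources used here do not say whether the cells were a clone or a pool. Each group holds 1 library, so no difference has a replicate check and no p-value between conditions is given.

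AP-1 is a dimeric transcription factor. JUN proteins pair with each other or with FOS proteins through a leucine zipper, and FOS proteins need a JUN partner. The dimers bind the TRE element (TGACTCA or TGAGTCA) or, mainly in pairs with ATF proteins, the CRE element (TGACGTCA). Immediate early genes are transcribed within minutes of a growth factor or stress signal without new protein synthesis, largely through serum response factor at the CArG box and through CREB and ATF proteins at CRE elements. JUN also acts on its own promoter, JUNB and JUND can restrain JUN, ATF3 is a stress-induced member of the ATF family, EGR1 is a zinc finger factor of the same early response, and NR4A1 (NUR77) is an orphan nuclear receptor.

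Upstream sequences are shown for the JUN genes, whose make-up differed between the libraries, and for EGR1, which carried the CArG boxes. They are the 250 bases before the annotated start in RefSeq on build GRCh38.p14, written 5′ to 3′ along the gene. Capitals mark TGACATCA in JUN, TATAAA in JUNB, TGACGTCA in JUND, and GCGNGGGCG followed by both CArG boxes in EGR1.
JUN (chr1:58784048-58784297, minus strand): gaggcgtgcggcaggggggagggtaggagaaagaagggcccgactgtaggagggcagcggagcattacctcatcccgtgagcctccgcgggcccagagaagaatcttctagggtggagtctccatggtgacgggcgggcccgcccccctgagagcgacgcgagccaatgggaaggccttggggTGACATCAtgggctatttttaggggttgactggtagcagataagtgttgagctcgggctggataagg
JUNB (chr19:12791236-12791485, plus strand): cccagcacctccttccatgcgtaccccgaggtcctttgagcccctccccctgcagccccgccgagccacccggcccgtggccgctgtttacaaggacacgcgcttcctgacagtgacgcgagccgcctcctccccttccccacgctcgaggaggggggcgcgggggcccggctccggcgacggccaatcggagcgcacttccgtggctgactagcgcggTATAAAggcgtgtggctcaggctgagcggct
JUND (chr19:18281623-18281872, minus strand): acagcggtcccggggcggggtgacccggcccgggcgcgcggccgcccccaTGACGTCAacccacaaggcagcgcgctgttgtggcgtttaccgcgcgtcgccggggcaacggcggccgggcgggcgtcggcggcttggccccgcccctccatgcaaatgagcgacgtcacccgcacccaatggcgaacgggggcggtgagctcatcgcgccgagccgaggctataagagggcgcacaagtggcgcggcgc
EGR1 (chr5:138465229-138465478, plus strand): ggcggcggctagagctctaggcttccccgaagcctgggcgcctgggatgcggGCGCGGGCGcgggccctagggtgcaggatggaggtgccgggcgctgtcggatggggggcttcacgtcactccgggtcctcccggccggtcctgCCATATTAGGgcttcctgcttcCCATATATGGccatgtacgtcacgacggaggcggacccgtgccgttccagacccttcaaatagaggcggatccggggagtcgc

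The table of RefSeq windows covered 9 of the 10 genes with 11 windows, since ATF3 and NR4A1 had 2 starts each; FOSL1 had no entry. Both strands were searched. TGANTCA allows any middle base and is wider than the TRE element. It occurred in 0 of the 11 windows, against 6.57% of 35116 windows of all genes. TGACGTCA was found in JUND only among these windows, and in 1.65% of all windows. The related TGACATCA was found in JUN, 67 to 60 bases before the start, and in 1 ATF3 window, against 2.37% of all windows. The shorter TGACG, which is contained in TGACGTCA, was found in 7 of the 11 windows (JUN, JUNB, JUND, FOS, FOSB, FOSL2 and EGR1), against 21.2% of all windows. CArG boxes were found in EGR1 alone among these genes, 105 to 96 and 83 to 74 bases before the start, against 1.16% of all windows. The zinc finger motif GCGNGGGCG, bound by EGR1, was likewise found in EGR1 alone, against 8.41%, and TATAAA in JUNB, FOS, FOSB and 1 ATF3 window, against 10.7%. A match describes letters in this window and is not evidence of binding in these cells, and a missing match concerns this window only.

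The shNRP2 library held 22949961 reads on named genes and the shControl library 21014142. Values are TMM-scaled CPM (read counts scaled to library size) as deposited, and 1 read was worth 0.0472 CPM in shNRP2 and 0.0487 CPM in shControl. Intervals are exact 95% intervals from the recovered reads; they hold counting error alone, because no molecular identifiers marked the original RNA molecules and the cultures were not repeated. NRP2 itself had 7 reads (0.330 CPM) in shNRP2 and 20 reads (0.974 CPM) in shControl, a ratio of 0.339 (0.121 to 0.835), so the check of the targeted gene rests on few reads. Of the prostate epithelial markers, 9 of 9 had over 5 CPM in both libraries, and 3 of the 9 were past 1.5-fold higher in shNRP2: KLK3 (41.0 CPM in shNRP2, 5.60 CPM in shControl), KLK2 (92.5 and 16.4 CPM) and TMPRSS2 (181 and 117 CPM). HOXB13 (486 and 511 CPM) and FOLH1 (1053 and 1187 CPM) had lower values in shNRP2, and none of the 9 was past 1.5-fold lower. Among leukocyte markers, PTPRC had 1 read in shNRP2 and 5 in shControl, CD3E 1 and 2, and CD14 1 in each. The fibroblast markers together had 736 and 903 reads, nearly all from COL1A1, with DCN at 0 in both libraries. The endothelial markers PECAM1, VWF and CDH5 had 82 and 77 reads, with PECAM1 and CDH5 at 0 in shControl. The erythroid markers HBB and HBA1 had 58 and 11. Their part in the results was not tested.

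JUN was lower in the shNRP2 library, JUNB higher and JUND close to level. JUN, the founding AP-1 subunit and a target of the JNK kinases, was at 57.8 CPM (54.6 to 61.1) in shNRP2 and 102 CPM (97.6 to 106) in shControl. The ratio was 0.567 (0.528 to 0.608), 1.76-fold lower, and the difference on the log2(CPM + 1) scale was -0.81. A gene was compared if the mean of its 2 values reached 1 CPM, and of 13316 such genes 161 (1.21%) were as low or lower on that scale. In bulk RNA, fewer cells with the transcript and less transcript per cell cannot be told apart. JUNB, a weaker activator that can oppose JUN, was at 95.1 CPM (91.0 to 99.4) in shNRP2 and 74.7 CPM (71.0 to 78.6) in shControl, a ratio of 1.27 (1.19 to 1.36). JUND, the JUN protein found in most resting cells, was at 146 CPM in shNRP2 and 150 CPM in shControl, and its ratio of 0.973 had a counting interval from 0.925 to 1.02.

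**Figure D1:**
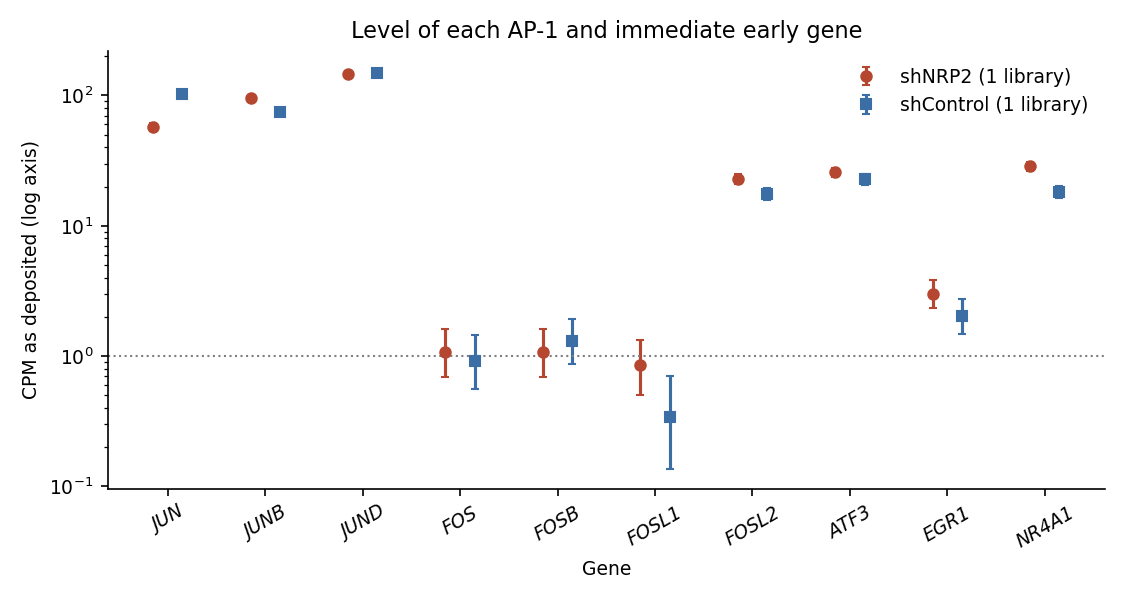
Deposited CPM (log axis) of the 10 genes, 1 point per library, shNRP2 left of shControl, with exact 95% Poisson intervals as bars; the dotted line is 1 CPM. JUN is lower in shNRP2 (57.8 against 102 CPM), JUNB and NR4A1 are higher, and FOS, FOSB and FOSL1 lie near 1 CPM with wide bars.

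The make-up of the JUN reads therefore differed between the libraries in a way no scale factor can move. JUN took 19.4% (18.4 to 20.4) of the JUN, JUNB and JUND reads in shNRP2 and 31.2% (30.1 to 32.4) in shControl. JUNB took 31.9% (30.7 to 33.0) in shNRP2 and 22.9% (21.9 to 23.9) in shControl, and JUND 48.8% (47.5 to 50.0) in shNRP2 and 45.9% (44.7 to 47.1) in shControl. Per JUNB read there were 0.607 JUN reads in shNRP2 and 1.36 in shControl, so that this ratio in shNRP2 was 0.445 times that in shControl (0.404 to 0.491). Summed over the JUN genes, the level was 299 CPM in shNRP2 and 326 CPM in shControl, a ratio of 0.915 (0.884 to 0.947), so the sum differed less than JUN alone. Shares are of reads, which longer transcripts collect more of, and are compared between libraries, not between genes.

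Among the FOS genes, only FOSL2 was well measured. FOSL2, the FRA-2 subunit, was at 22.7 CPM (20.7 to 24.9) in shNRP2 and 17.5 CPM (15.8 to 19.4) in shControl, a ratio of 1.30 (1.13 to 1.49). FOS, the partner of JUN in classical AP-1, had 23 reads in shNRP2 and 19 in shControl (1.08 and 0.925 CPM; ratio 1.17, 0.611 to 2.28). FOSB had 23 reads in shNRP2 and 27 in shControl (ratio 0.825, 0.452 to 1.49), and FOSL1, the FRA-1 subunit, 18 and 7 (ratio 2.49, 0.993 to 7.06). The intervals of these last 3 genes include equal levels, and differences within them were not detectable at this depth. FOSL2 held 88.3% (85.3 to 90.9) of the FOS family reads in shNRP2 and 87.2% (83.6 to 90.2) in shControl. The summed FOS family was at 25.8 CPM in shNRP2 and 20.1 CPM in shControl, a ratio of 1.28 (1.12 to 1.46). FOSL2 reads per JUN read were 0.393 in shNRP2 and 0.172 in shControl, 2.29 times as many (1.96 to 2.68).

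**Figure D2:**
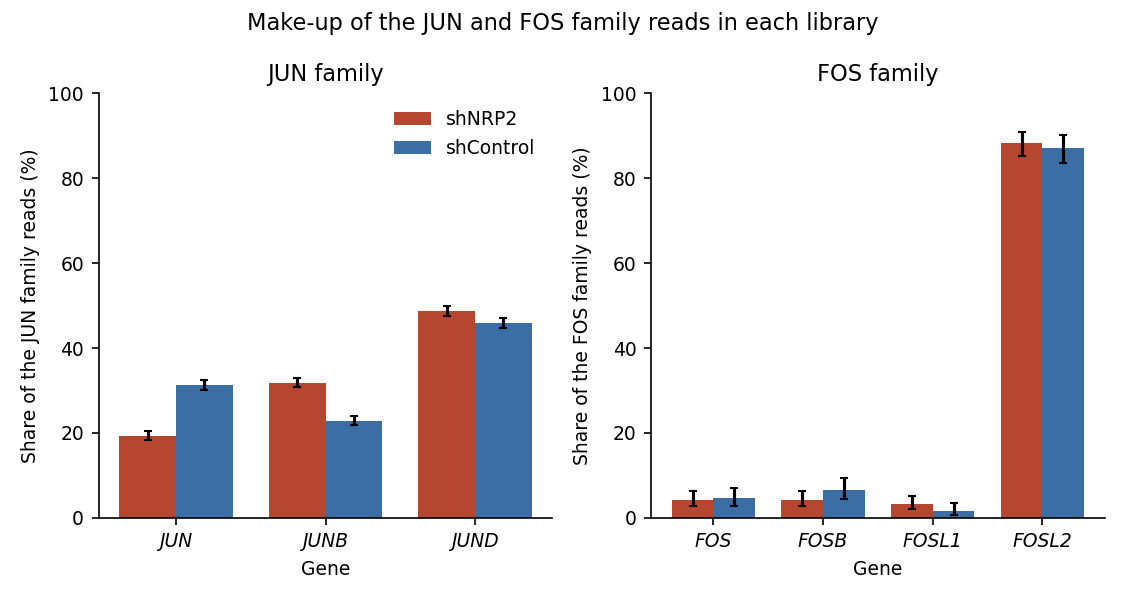
Share of each gene (%) in the reads of the JUN family (left panel) and FOS family (right panel), shNRP2 left of shControl, with exact 95% binomial intervals as bars. JUN takes 19.4% in shNRP2 and 31.2% in shControl, JUNB 31.9% and 22.9%, while FOSL2 takes 88.3% and 87.2% of its family.

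Outside the JUN and FOS genes, NR4A1 was the clearest difference. NR4A1 was at 28.6 CPM (26.4 to 31.0) in shNRP2 and 18.1 CPM (16.3 to 20.0) in shControl, a ratio of 1.58 (1.38 to 1.80) and a log2(CPM + 1) difference of 0.63; 662 compared genes (4.97%) were as high or higher on that scale. Its paralogs NR4A2 and NR4A3 had at most 8 reads in either library. EGR1 was at 3.02 CPM (64 reads) in shNRP2 and 2.04 CPM (42 reads) in shControl, a ratio of 1.48 whose interval, 0.985 to 2.23, includes equal levels. Its paralog EGR2, at 1.51 CPM in shNRP2 and 1.46 CPM in shControl, had nearly equal reads (32 and 30), EGR3 had 2 reads in each library and EGR4 had 0. A count of 0 allows, by the one-sided limit of 3 reads, up to 0.141 CPM in shNRP2 and 0.146 CPM in shControl. ATF3 was at 25.7 CPM (23.5 to 27.9) in shNRP2 and 22.7 CPM (20.7 to 24.8) in shControl, a ratio of 1.13 (0.997 to 1.28) that also includes equal levels.

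**Figure D3:**
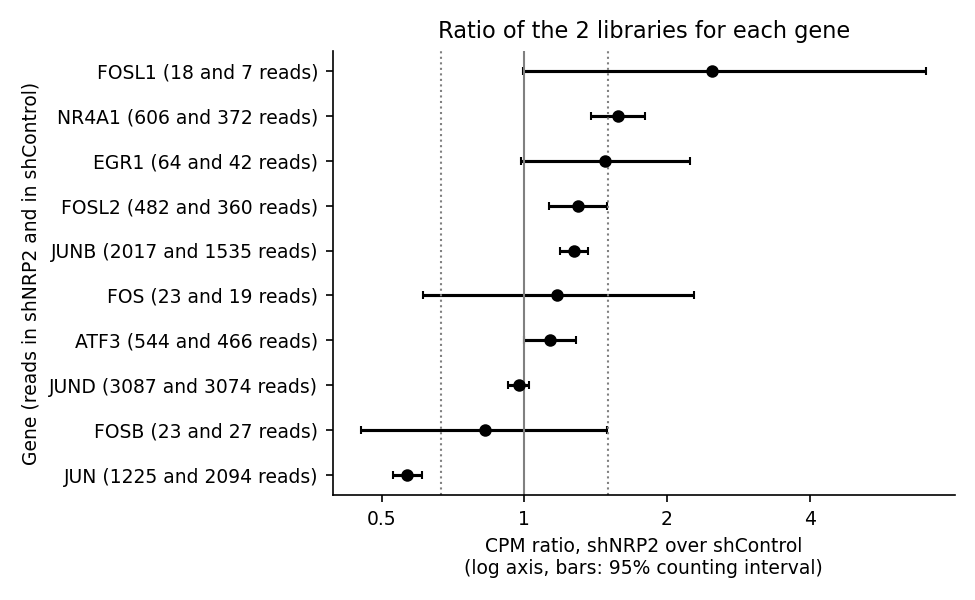
Ratio of deposited CPM, shNRP2 over shControl (log axis), for each gene, ordered by ratio, with the exact conditional 95% interval as a bar and the reads of both libraries beside the name; the solid line is a ratio of 1 and the dotted lines are 1.5-fold. Intervals of JUN (below 1) and of JUNB, FOSL2 and NR4A1 (above 1) exclude equal levels, and the other 6 include them.

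Per kilobase of the longest protein-coding transcript in GENCODE 29, the order of levels was the same in both libraries down to EGR1. JUND was highest, at 78.2 CPM per kb in shNRP2 and 80.3 in shControl, followed by JUNB at 52.3 and 41.1, JUN at 16.3 and 28.8, ATF3 at 12.6 and 11.2, NR4A1 at 8.14 and 5.16, FOSL2 at 3.39 and 2.61, and EGR1 at 0.962 and 0.652. FOS, FOSB and FOSL1 were lowest, between 0.287 and 0.509 CPM per kb in shNRP2 and between 0.204 and 0.429 in shControl, with counting intervals that overlap among them within each library. The place of JUN, ATF3, NR4A1, FOS and EGR1 depended on the transcript. With the median length of each gene's protein-coding transcripts, ATF3 (33.4 CPM per kb in shNRP2, 29.5 in shControl) stood above JUN (16.3 in shNRP2, 28.8 in shControl) in both libraries, with overlapping intervals in shControl. NR4A1 (22.7 in shNRP2, 14.4 in shControl) then stood above JUN in shNRP2 and below it in shControl, and FOS (1.30 in shNRP2, 1.11 in shControl) stood above EGR1 in both libraries, with overlapping intervals in each.

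Set against all genes, the class did not move as a block. The threshold was 1.5-fold on the log2(CPM + 1) scale, a difference of 0.585; the added 1 CPM understates changes of low genes. Of the 10 genes, 9 passed the mean of 1 CPM; FOS lay just inside it with a mean of 1.00 CPM and FOSL1 outside it with 0.595 CPM. NR4A1 alone was counted as higher, 1 of 9 (11.1%), where 5.78% of all compared genes were, and JUN alone as lower, also 11.1%, where 3.57% of all compared genes were. A count of 1 is the smallest possible, so neither share sets the class apart. Among the 6 genes of the class with a mean of at least 10 CPM the same 2 were counted, where 3.29% of all genes at that level were higher and 2.26% lower. NR4A1 lay close to the threshold: with both libraries set to equal totals it was no longer counted (0 of the compared members higher), nor was it with 5 CPM added in place of 1. Over all genes, equal totals turned 769 higher and 476 lower into 595 higher and 657 lower. The other 7 lay between, from FOSB at -0.15 to EGR1 at 0.40. The median difference was 0.17 over the 9 genes and 0.03 over all compared genes. Counted by an exact conditional binomial test on the reads (adjusted threshold 0.05), which compares these libraries and not the conditions, 3 of 9 were higher (33.3%, against 30.5% of all compared genes) and 1 lower (11.1%, against 22.2%).

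**Figure D4:**
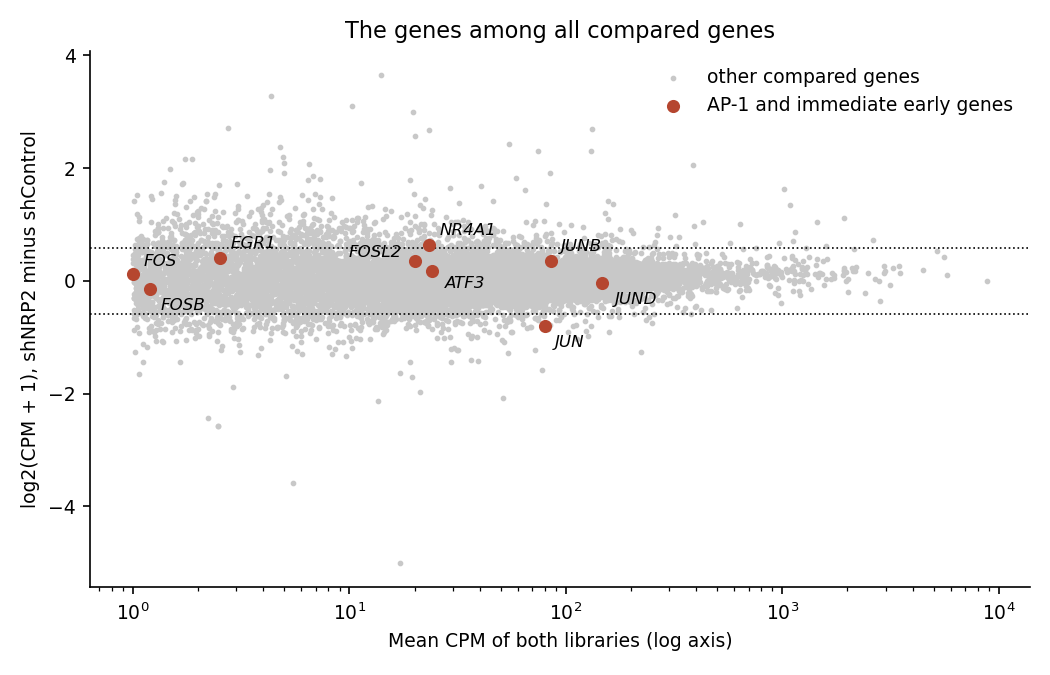
Difference in log2(CPM + 1), shNRP2 minus shControl, against the mean CPM of both libraries (log axis), for the 9 compared genes of the class (red, named) and all other compared genes (grey); dotted lines are 1.5-fold. JUN lies below the lower line at -0.81, NR4A1 just above the upper line at 0.63, and the other 7 between the lines.

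The further lists of the pathway are read against those shares of 5.78% higher and 3.57% lower. Other bZIP proteins that can pair with JUN or FOS gave 0 higher and 0 lower of 13 compared (18 listed; median difference -0.08). The most abundant was ATF4, a stress-response factor, at 428 CPM in shNRP2 and 454 CPM in shControl, then MAFK, a small MAF protein, at 81.7 and 76.2 CPM. ATF2, a JUN partner at the JUN promoter, was at 27.2 CPM in shNRP2 and 37.3 CPM in shControl (ratio 0.730, 0.654 to 0.814). JDP2, a repressor that pairs with JUN, was at 33.3 and 27.3 CPM (ratio 1.22, 1.09 to 1.37). On the same list, ATF7 (ratio 0.781, 0.707 to 0.863) and ATF5 (0.800, 0.726 to 0.881) were also lower in shNRP2. ATF6 (1.15, 1.06 to 1.24) was higher. ATF2, JDP2, ATF5, ATF6 and ATF7 were chosen after their values were seen, and a link to JUN was not tested.

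Other early-response nuclear proteins also gave 0 higher and 0 lower, of 11 compared (15 listed; median 0.03). MYC was at 239 CPM in shNRP2 and 252 CPM in shControl, and IER2 at 77.8 and 81.0 CPM. CSRNP1, which was singled out once its value was known, was at 37.2 CPM in shNRP2 and 26.3 CPM in shControl (ratio 1.41, 1.26 to 1.58). Of 23 compared early-response genes of other kinds (28 listed; median -0.01), 1 was higher and 2 lower. BTG2, an antiproliferative p53 target, was higher at 71.3 CPM in shNRP2, against 44.7 CPM in shControl (ratio 1.59, 1.47 to 1.73), a call that equal totals ended. ZFP36L2, which binds AU-rich RNA and promotes its decay, was lower at 38.9 CPM in shNRP2, against 73.5 CPM in shControl (ratio 0.529, 0.486 to 0.577). The polo-like kinase PLK2 was lower at 9.48 CPM, against 15.9 CPM (ratio 0.595, 0.497 to 0.712), a call that a pseudocount of 5 CPM ended. The most abundant of this list were BTG1, at 426 CPM in shNRP2 and 372 CPM in shControl, and the small GTPase RHOB, at 297 and 211 CPM. DUSP1, a nuclear MAP kinase phosphatase singled out once its value was known, was at 10.7 CPM in shNRP2 and 16.2 CPM in shControl (ratio 0.662, 0.557 to 0.787).

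Of 14 compared SRF, CREB and MEF2 factors and their cofactors (16 listed; median -0.04), 0 were higher and 1 was lower. SRF, serum response factor, was lower at 51.8 CPM in shNRP2, against 79.3 CPM in shControl (ratio 0.654, 0.605 to 0.706), a call that a pseudocount of 5 CPM ended. SRF partners went both ways without passing the threshold: ELK4 was at 80.6 CPM in shNRP2 and 102 CPM in shControl, the myocardin-related cofactor MKL2 at 71.1 and 103 CPM, and ELK3, singled out once its value was known, at 33.2 and 22.2 CPM. Of 14 compared feedback genes of the ERK pathway (17 listed; median 0.07), 2 were higher and 0 lower. DUSP2, a nuclear MAP kinase phosphatase, was at 94.3 CPM in shNRP2 and 46.8 CPM in shControl (ratio 2.02, 1.87 to 2.18), and SPRED3, an inhibitor of RAS-ERK signalling, at 2.55 and 1.31 CPM (54 and 27 reads, ratio 1.94). The call of SPRED3 was lost with a pseudocount of 5 CPM, a mean of at least 5 CPM, equal totals and quantile normalization. DUSP16, which acts mainly on JNK and p38, was at 72.9 CPM in shNRP2 and 80.3 CPM in shControl.

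Genes known as AP-1 targets in other cells held more higher members than any other list here: 5 of 13 compared were higher (38.5%, against 5.78% of all compared genes) and 0 lower, with a median difference of 0.44. The list was written with large values of TGFB1 and VEGFA already known, so the count is a description. TGFB1, transforming growth factor beta 1, was at 8.68 CPM in shNRP2 and 0.876 CPM in shControl (ratio 9.90, 6.09 to 17.1). PLAU, the urokinase protease, was at 1.93 and 0.584 CPM (ratio 3.31, 1.71 to 6.92), and its receptor PLAUR at 1.93 and 0.779 CPM (ratio 2.48, 1.36 to 4.74). VEGFA, at 159 CPM in shNRP2 and 98.8 CPM in shControl (ratio 1.61), and the collagenase MMP13, with 33 and 13 reads, completed the 5. The most abundant targets differed less: cyclin D1 (CCND1) was at 456 CPM in shNRP2 and 376 CPM in shControl, and HMGA1 at 291 and 281 CPM. Of the 10 targets under a mean of 1 CPM, CXCL8 (5 reads in shNRP2, 19 in shControl) was lower in shNRP2 beyond counting error and TIMP1 (13 and 3) was higher; both were chosen after their values were seen. Most of the higher targets had few reads, and with a mean of at least 5 CPM required, 1 was higher.

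**Figure D5:**
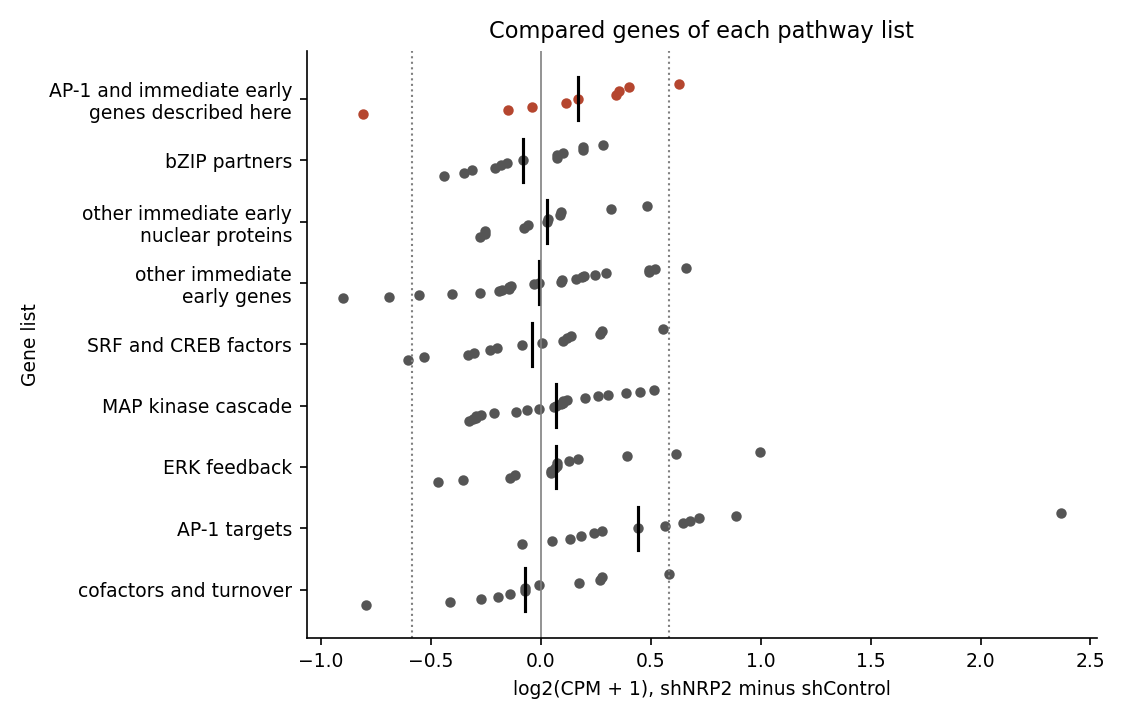
Difference in log2(CPM + 1), shNRP2 minus shControl, of each compared gene (points, spread vertically by rank) in the class described here (red) and in each pathway list (grey), with the median of each list as a black bar; dotted lines are 1.5-fold. The AP-1 targets have 5 points beyond the upper line, led by TGFB1 at 2.37, while the bZIP partners lie wholly between the lines.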

How the data were processed

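RNA sequencing of 1 shNRP2 and 1 shControl library of C4-2B ENZR cells was analysed. The authors deposited a signal per gene symbol, TMM-scaled CPM, as the tables are labelled; the values sum to 1084413 in shNRP2 and 1024943 in shControl, so they are not plain CPM as the planned design took them to be. The scale factors these sums imply, 0.922 and 0.976, are both below 1, although TMM factors multiply to 1 over a set of libraries; scaling to equal totals was an alternative, and it changed some calls. Build hg19 and the tools bcl2fastq (2.17), Bowtie2 (2.1.0), edgeR and RSEM (1.2.15) are named, per the submitters' processing notes; annotation, filters and strand setting are not stated there. In both libraries 100% of the values were whole multiples of the value of 1 read within 0.01 read, so whole reads were recovered. An exact conditional binomial test on them, with Benjamini-Hochberg adjustment at 0.05, called 7016 of 13316 genes; it was added after seeing the data. Another 28 symbols turned into calendar dates (0.184% of shNRP2 and 0.181% of shControl reads) were left out.

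Ratios are of deposited CPM with Clopper-Pearson conditional intervals, levels have exact Poisson intervals, and the threshold used log2(CPM + 1). Calculations used Python 3.11.15, NumPy 2.4.6, SciPy 1.17.1 and pandas 2.3.3, and were tested on simulated data. List members were matched by symbol, 1 (CXCL8) through an older symbol. All 10 genes are described; from each list the rule named up to 3 of the largest higher and lower members past 1.5-fold and the 2 most abundant; some genes it names are not reported here. The genes and lists were chosen with earlier results of these data known. GENCODE 29 gave transcript lengths only, and RefSeq the upstream windows; both are on another build, and no coordinate was carried over.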

Additional observations from a re-analysis of the deposited data

How the results depend on the processing

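No paired analysis was possible because each group holds 1 library, which leaves no spread between pairs. JUN was counted as lower under every alternative but the 2-fold threshold, with 0 lower and 0 higher. The count of higher genes was also 0 with a pseudocount of 5 CPM and 0 with equal totals, and 3 by the exact conditional binomial test. In the other alternatives both counts were 1. The log2 difference of JUN ranged from -0.89 to -0.77 over pseudocounts and scalings, that of NR4A1 from 0.54 to 0.65 and that of JUNB from 0.26 to 0.35. The sign of all 10 genes was the same under each scaling and pseudocount. JUND, close to level, was at -0.12 with equal totals, and FOSL1 at 0.90 with a pseudocount of 0.25 CPM. The median over the genes stayed between 0.15 and 0.26. Over all genes, 769 higher and 476 lower became 329 and 159 with a pseudocount of 5 CPM, 465 and 310 with a mean of 5 CPM, 194 and 70 at 2-fold, and 1006 and 737 on the plain ratio. The count of AP-1 targets higher was 2 with a pseudocount of 5 CPM, 1 with a mean of 5 CPM and 1 at 2-fold. Equal totals ended the call of BTG2, leaving 0 of its list higher, and gave 2 lower SRF and CREB factors. A pseudocount of 5 CPM left 0 of those lower. Depth limits FOS, FOSB, FOSL1 and EGR1, whose intervals include equal levels.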

Other observations

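The kinase cascade upstream of these factors had no gene past 1.5-fold: of 21 compared MAP kinases, MAP kinase kinases and RSK and MSK kinases, 0 were higher and 0 lower, with a median difference of 0.07. MAP2K3, which activates p38 kinases, was at 202 CPM in shNRP2 and 154 CPM in shControl. MAPK8 and MAPK9, the JNK kinases that phosphorylate JUN, were at 55.7 CPM in shNRP2 and 53.0 CPM in shControl and at 74.0 and 59.7 CPM; they were chosen after their values were seen. RNA levels do not measure kinase activity.

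Of 12 compared cofactors and turnover factors of the class, 0 were higher and 1 was lower (median -0.07). TRIB1, a pseudokinase that recruits the COP1 ubiquitin ligase, was lower at 16.6 CPM in shNRP2, against 29.5 CPM in shControl (ratio 0.562, 0.491 to 0.642). The acetyltransferases EP300 and CREBBP, coactivators of many factors, were at 123 CPM in shNRP2 and 149 CPM in shControl and at 125 and 131 CPM. NAB1, an EGR1 corepressor singled out once its value was known, was at 17.5 CPM in shNRP2 and 11.4 CPM in shControl (ratio 1.54, 1.30 to 1.82), just under the threshold at a log2(CPM + 1) difference of 0.58. RFWD2, which encodes COP1, and FBXW7 are ubiquitin ligase components that target JUN. They were at 46.0 CPM in shNRP2 and 40.7 CPM in shControl, and at 13.2 and 10.7 CPM. On the same list, ITCH was at 88.1 CPM in shNRP2 and 88.5 CPM in shControl, and COPS5 at 77.1 and 85.2 CPM. RFWD2, FBXW7, ITCH and COPS5 were also chosen after their values were seen, and a link to JUN was not tested.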
